A study of Rattus norvegicus with 12 samples.

Results

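Mitochondrial ribosomal proteins are the protein parts of the ribosome that works inside mitochondria, and their genes carry the symbols Mrpl for the large subunit and Mrps for the small subunit. The set described here holds every gene on the array whose annotated symbol is Mrpl or Mrps followed by a number and at most 1 letter. It came to 67 genes, 41 with an Mrpl and 26 with an Mrps symbol, of 14329 genes with a single symbol. The 67 genes were covered by 71 probe sets, and for the 4 genes with more than 1 probe set the brightest over all 12 arrays was taken.

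Laryngeal muscle came from male rats of strain F344. The recurrent laryngeal nerve, which drives the muscles that open and close the vocal folds, had been cut on 1 side with loss of a 1 cm piece, and control animals had the operation without the nerve injury. Muscle was taken after 1 week. All animals had ketamine and xylazine anaesthesia. The study compared injured with uninjured tissue in 2 muscles, giving 4 groups of 3 arrays each. They are the posterior cricoarytenoid muscle (PCA), which opens the vocal folds, after control surgery (PCA control) and after nerve injury (PCA injury), and the adductor complex (AC), which closes them, after control surgery (AC control) and after nerve injury (AC injury). The labels give 10 animals for each kind of surgery but do not say which animal gave which array, whether specimens were pooled, or whether the PCA and AC arrays share animals, so the p-values reflect array-to-array spread alone, part or all of which may be technical.

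Mitochondria keep a small genome of their own that encodes core subunits of the respiratory chain and the ATP synthase, and the mitochondrial ribosome is the machine that translates those messages. Its proteins are all encoded in the nucleus, made in the cytosol and imported, and inside the organelle they assemble on ribosomal RNA transcribed from mitochondrial DNA. In skeletal muscle, where oxidative fibres are rich in mitochondria, the supply of respiratory chain subunits therefore depends on both the cytosolic and the mitochondrial ribosome.

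Values are log2 intensities, normalised between arrays, so a difference of -1 stands for a halving of signal relative to the other genes of the array. A gene is said to have risen or fallen where limma's moderated test, fitted over all 12 arrays with a mean per group, gave a Benjamini-Hochberg adjusted p under 0.05 over all 14329 genes. The muscle label was borne out by its markers on every array: Acta1, skeletal muscle actin, lay between 13.40 and 13.68, and Ckm, muscle creatine kinase, between 12.85 and 13.43. Some arrays stood apart in tissue that is not muscle. The mean over 12 thyroid and parathyroid markers was 9.90 on PCA control 1, 9.68 on PCA injury 2 and 8.50 on AC injury 2, against 6.27 to 7.12 on the other arrays. The mean over 8 squamous epithelium markers ran from 7.61 to 10.57 in the PCA controls and from 11.09 to 11.70 in the injured PCA. All 11 cartilage markers fell and 14 of 15 macrophage markers rose in the injured PCA. Of 12 adipocyte markers 10 fell there, with a median of -0.65, and their mean ran from 8.37 to 8.70 in the PCA controls and from 7.24 to 7.76 after injury. Ucp1, the uncoupling protein of brown fat, a tissue rich in mitochondria, was at -3.46 ± 0.34 (adjusted p = 0.000207). Muscle fibre markers were lower there as well, with 5 of 11 falling, and their mean was 11.87, 12.21 and 12.81 on PCA injury 1, 2 and 3, whereas the PCA controls gave 12.76 to 12.92. In RNA from whole muscle, fewer cells of a type and less RNA per cell cannot be told apart.

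The regulatory sequence ahead of the genes is shown for 4 members with different responses to injury in the PCA: Mrpl40, of the central protuberance of the large subunit, and Mrps18c, of the small subunit, which were among the members that fell most; Mrpl57, a large-subunit protein that fell least among those called; and Mrpl23, a protein at the exit of the large subunit's peptide tunnel, which rose. The genes lie in the RefSeq annotation of rat build GRCr8 at chr11:95637501-95637750 on the plus strand (Mrpl40), chr14:9122907-9123156 on the minus strand (Mrps18c), chr15:36086207-36086456 on the plus strand (Mrpl57) and chr1:207116680-207116929 on the plus strand (Mrpl23), each interval being the 250 bases before the annotated transcription start. Capitals mark matches, on either strand, to a motif of nuclear respiratory factor 1 (GCGCA, any base, GCGC), of the ETS family to which GA-binding protein belongs (CCGGAAG) or of YY1 (AAGATGGCG), factors known to act on nuclear genes for mitochondrial proteins.
Mrpl40: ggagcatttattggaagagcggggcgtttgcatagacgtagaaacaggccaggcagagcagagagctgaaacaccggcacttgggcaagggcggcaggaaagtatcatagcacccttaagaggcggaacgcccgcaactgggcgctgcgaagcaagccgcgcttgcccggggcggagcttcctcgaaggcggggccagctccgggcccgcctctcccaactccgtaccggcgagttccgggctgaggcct
Mrps18c: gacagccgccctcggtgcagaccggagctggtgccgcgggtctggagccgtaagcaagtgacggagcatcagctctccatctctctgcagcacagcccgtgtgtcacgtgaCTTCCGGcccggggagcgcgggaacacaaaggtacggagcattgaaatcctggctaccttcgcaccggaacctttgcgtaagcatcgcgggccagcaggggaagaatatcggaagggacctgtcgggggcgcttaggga
Mrpl57: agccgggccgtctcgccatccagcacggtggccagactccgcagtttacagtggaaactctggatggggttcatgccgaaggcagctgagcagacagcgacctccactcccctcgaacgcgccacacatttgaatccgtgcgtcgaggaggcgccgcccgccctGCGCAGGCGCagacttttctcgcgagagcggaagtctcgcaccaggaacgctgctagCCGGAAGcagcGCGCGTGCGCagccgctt
Mrpl23: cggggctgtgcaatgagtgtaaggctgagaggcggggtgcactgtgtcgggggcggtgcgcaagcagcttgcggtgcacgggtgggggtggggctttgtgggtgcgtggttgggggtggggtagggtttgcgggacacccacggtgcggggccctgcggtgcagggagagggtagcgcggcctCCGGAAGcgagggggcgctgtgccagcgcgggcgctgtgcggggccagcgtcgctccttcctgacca
Mrpl40, with a fall of 0.58, held none of the 3 motifs in this window. Mrps18c and Mrpl23, which moved in opposite directions, each held the ETS motif, 139 and 67 bases before the start. Mrpl57 held the nuclear respiratory factor 1 motif at 86 and 18 bases and the ETS motif at 29 bases before the start.

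A promoter was listed for 54 of the 67 members. The nuclear respiratory factor 1 motif was found in 7 of the 54 (13%), the ETS motif in 11 (20.4%) and the YY1 motif in 1 (1.85%), and 17 (31.5%) held at least 1 of the 3. Among the promoters of 11806 of all genes tested, the shares were 6.74%, 11.2%, 0.898% and 17.5%. For 61 nuclear genes of the respiratory chain and ATP synthase the shares were 14.8%, 27.9%, 1.64% and 41%. For 59 genes of the cytosolic ribosome they were 10.2%, 25.4%, 0% and 33.9%. The motif shares were therefore not particular to the members. No 2 different motifs overlapped in a member's promoter. Of the members that fell in the injured PCA, 14 had a promoter listed and 3 of these (21.4%) held a motif, against 14 of 40 (35%) of the other members. A match to these letters is a description of the window and not a measured binding site.

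**Figure D1:**
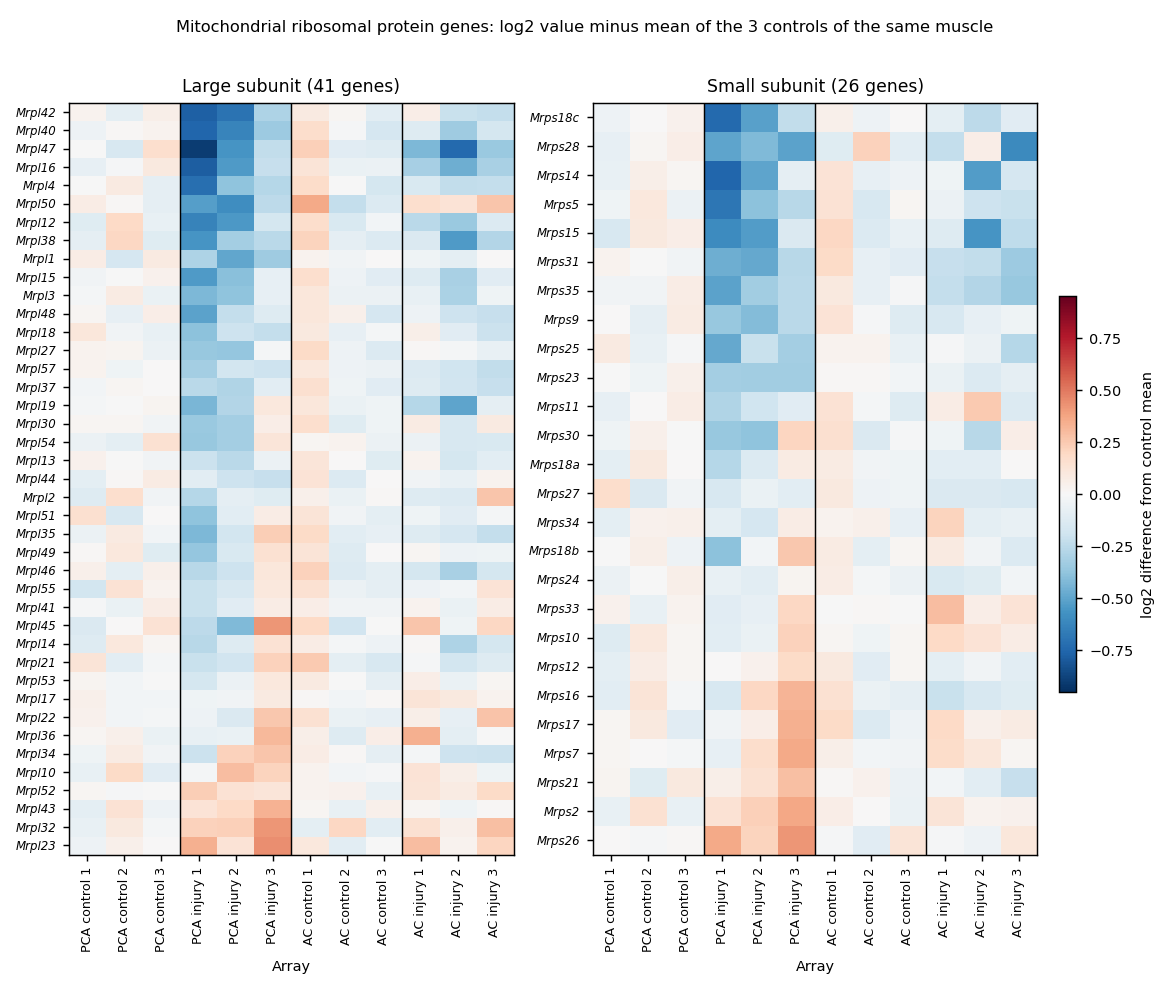
Each row is a mitochondrial ribosomal protein gene and each column is an array. By symbol, 41 genes of the large subunit are on the left and 26 of the small on the right. Rows are ordered by the fitted PCA injury difference. Colour is the log2 value minus the mean of the 3 control arrays of the same muscle; most rows are blue on PCA injury 1 and 2, while on PCA injury 3 blue and red rows are about equally many (27 genes below and 30 above all 3 controls).

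In the PCA, part of the mitochondrial ribosome was lower after nerve injury, and most of its members were not called. Of the 67 genes, 17 fell (25.4%) and 2 rose (2.99%), and 48 did not pass the test. Over all genes tested, 12.5% fell and 13.3% rose. Without the 3 arrays high in thyroid markers, 7.46% of the members and 7.62% of all genes fell. The larger share of falls among the members was not seen there. That fit left out PCA control 1 and PCA injury 2, so each PCA group had fewer arrays. At an unadjusted p under 0.05 in limma, 19 members were lower and 2 higher in it. With all 12 arrays these counts were 26 and 6, and 2678 and 2605 over all genes. The all-gene counts at this cut-off in the smaller fit are not given here. With all arrays, the median difference was -0.16 over the members and -0.03 over all genes. Of the members 49 (73.1%) lay below 0, against 54.8% of all genes. The injured and control arrays did not overlap, with injury lower, in 27 members (18.8% of all genes) and, with injury higher, in 4 (18.2% of all genes). The falls were moderate in size: the 17 genes kept between 0.664 and 0.853 of their control signal.

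Calls came from both subunits. The subunits were split by symbol, so Mrps18a and Mrps30, whose proteins sit in the large subunit, were counted with the small. Among the Mrpl genes 9 of 41 fell and 1 rose, with a median of -0.17. Among the Mrps genes 8 of 26 fell and 1 rose, with a median of -0.11. The difference between the subunits was not tested. The widest falls were those of Mrpl42, Mrpl40, Mrpl47 and Mrpl16 in the large and of Mrps18c and Mrps28 in the small subunit.

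Mrpl42 encodes a large-subunit protein that bacterial ribosomes lack. It read 11.93, 11.80 and 11.95 on the PCA controls and 11.12, 11.19 and 11.60 on the injured PCA. All injured arrays lay below all controls, with PCA injury 3 nearest to them. The difference was -0.59 ± 0.13 (SE), with an adjusted p of 0.00667. In the AC the values were 11.79, 11.72 and 11.60 in the controls and 11.77, 11.49 and 11.48 after injury, and these groups overlapped. The second, dimmer probe set for Mrpl42 gave -0.30 in the PCA with an adjusted p of 0.102, so the call rests on the brighter probe set.

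Mrpl40 read 8.83, 8.89 and 8.91 in the PCA controls and 8.12, 8.25 and 8.53 after injury, a difference of -0.58 ± 0.12 (adjusted p = 0.00457). Here too the groups were apart, and its second probe set also gave -0.58. Mrpl40 belongs to the central protuberance, the crest of the large subunit that faces the small one, of which 6 proteins were measured. Mrpl40 was the member of that group that fell, 5 of the 6 lay below 0, and Mrpl52 was above 0 at 0.16. Mrpl18, in the same group, was at -0.27 and just outside the threshold (adjusted p = 0.0507).

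Around the peptidyl transferase centre, where peptide bonds form, all 5 measured proteins (Mrpl2, Mrpl3, Mrpl4, Mrpl16 and Mrpl27) lay below 0 and 2 fell. Mrpl16 read 9.87, 9.94 and 10.04 in the PCA controls against 9.17, 9.41 and 9.73 after injury, again without overlap. Its difference was -0.51 ± 0.13 (adjusted p = 0.0120), and that of Mrpl4 was -0.46 ± 0.12 (adjusted p = 0.0157). Mrpl12, of the stalk that recruits translation factors, fell by 0.45 ± 0.13 (adjusted p = 0.0310), from 8.56, 8.86 and 8.60 to 8.04, 8.13 and 8.51. Its partner Mrpl10, which anchors the stalk, was at 0.16 and did not pass the test (adjusted p = 0.282).

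At the exit of the peptide tunnel the members moved in both directions. Of 6 measured proteins, Mrpl47 fell, Mrpl23 rose and the group median was -0.04. Mrpl47 read 8.74, 8.59 and 8.90 in the PCA controls and 7.84, 8.18 and 8.51 after injury, a difference of -0.57 ± 0.17 (adjusted p = 0.0313). Its injured arrays spread over more of the scale than those of any gene named so far. Mrpl23 went from 9.50, 9.60 and 9.55 to 9.89, 9.68 and 9.99, a difference of 0.30 ± 0.10 (adjusted p = 0.0418). With each array centred on its median the difference of Mrpl23 was 0.28 and no longer passed (adjusted p = 0.0615). Mrpl50, another large-subunit protein, fell from 7.56, 7.50 and 7.40 to 6.96, 6.90 and 7.24, or by 0.45 ± 0.14 (adjusted p = 0.0372).

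The remaining large-subunit genes that fell were Mrpl1, of the flexible stalk near the site where spent tRNA leaves, at -0.38 ± 0.08 (adjusted p = 0.00742), and Mrpl57 at -0.23 ± 0.07 (adjusted p = 0.0387). Mrpl15 lay just outside the threshold at -0.34 (adjusted p = 0.0559). Mrpl32, a zinc-binding protein of the large subunit, had the third-highest difference of all members at 0.29 ± 0.10 and did not pass the test (adjusted p = 0.0593). It read 7.76, 7.92 and 7.81 in the PCA controls and 8.05, 8.06 and 8.25 after injury, so its groups did not overlap.

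In the head of the small subunit, which closes over the messenger RNA, 3 of 8 measured proteins fell, namely Mrps9 at -0.34 ± 0.08 (adjusted p = 0.0113), Mrps31 at -0.40 ± 0.09 (adjusted p = 0.00896) and Mrps35 at -0.36 ± 0.08 (adjusted p = 0.00878). Mrps14, also of the head, was at -0.45 and missed the threshold (adjusted p = 0.0667). Among 8 measured proteins of the body and decoding region, Mrps5 fell, at -0.45 ± 0.11 (adjusted p = 0.0145), while 5 members lay above 0 and the median was 0.10. Mrps15 in this group was at -0.42 (adjusted p = 0.0585) and Mrps2 at 0.24 (adjusted p = 0.0580), both just outside the threshold and on opposite sides of 0. The groups were small and the difference between them was not tested.

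The most even fall was that of Mrps23, a small-subunit protein without a bacterial counterpart. It read 8.52, 8.48 and 8.57 in the PCA controls and 8.20, 8.19 and 8.19 after injury. The injured arrays were 0.01 apart, and the difference of -0.33 ± 0.06 had the lowest adjusted p of all members (0.00247). Mrps25, another protein without a bacterial counterpart, fell by 0.34 ± 0.09 (adjusted p = 0.0215). Mrps28 fell by 0.48 ± 0.15 (adjusted p = 0.0347), from 8.08, 8.18 and 8.22 to 7.66, 7.74 and 7.65.

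Mrps26 was the small-subunit gene that rose. It read 9.12, 9.11 and 9.13 in the PCA controls and 9.48, 9.33 and 9.54 after injury, a difference of 0.33 ± 0.08 (adjusted p = 0.0137) and the highest of the 67. Its AC values were 9.42, 9.32 and 9.55 in the controls and 9.42, 9.38 and 9.54 after injury. The injured PCA overlapped both AC groups, and the PCA controls lay below all other arrays.

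The 3 members named for ribosomal protein S18 did not move alike. Mrps18c, which encodes the form built into the small subunit at the bacterial position, fell from 9.96, 10.01 and 10.05 to 9.27, 9.49 and 9.77, or by 0.50 ± 0.11 (adjusted p = 0.00739). Mrps18a, whose protein sits in the large subunit in spite of its name, was at -0.11 ± 0.09 (adjusted p = 0.453), and Mrps18b at -0.05 ± 0.13 (adjusted p = 0.820). For both of them PCA injury 1 lay below all controls, whereas PCA injury 3 lay within or above the control range. Mrps30, another large-subunit protein with a small-subunit name, was at -0.18 ± 0.15 (adjusted p = 0.429): it read 8.95 and 8.93 on PCA injury 1 and 2 but 9.52 on PCA injury 3, above the controls at 9.27, 9.36 and 9.31. Mrps36, which belongs to the 2-oxoglutarate dehydrogenase complex, was not analysed here.

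**Figure D2:**
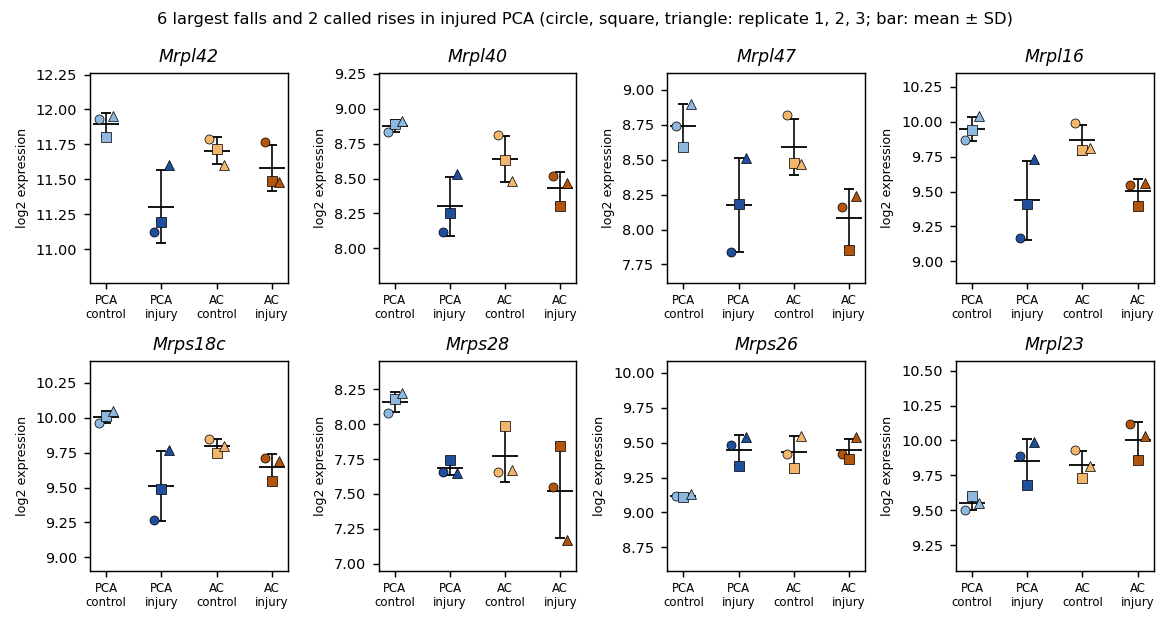
Log2 value on each array (circle, square and triangle for replicates 1, 2 and 3) with the group mean and SD (bars, n = 3) for the 6 members with the widest falls and the 2 called rises in the injured PCA, with the 4 groups along the horizontal axis of each panel. In the injured PCA all points of Mrpl42, Mrpl40, Mrpl47, Mrpl16, Mrps18c and Mrps28 lie below all 3 PCA controls and those of Mrps26 and Mrpl23 lie above them.

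The 3 injured PCA arrays were unequal. PCA injury 1 lay below all 3 controls in 55 of 67 members, PCA injury 2 in 46 and PCA injury 3 in 27. On PCA injury 3, 30 members lay above all controls. The median distance from the control mean was -0.29, -0.19 and 0.07 on the 3 arrays, and the mean over all members was 8.44, 8.54 and 8.75 against 8.72, 8.75 and 8.74 in the controls. PCA injury 1 was the lowest of the 3 in 49 members and PCA injury 3 the highest in 56. The within-group SD of a member had a median of 0.18 in the injured PCA and of 0.08 in the PCA controls, 0.11 in the AC controls and 0.09 in the injured AC.

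In each of the 17 genes that fell, PCA injury 3 was also below all 3 controls. These genes were called from the same arrays, so this is not separate support for the falls. Without PCA injury 3, 26 members fell (38.8%, against 12.6% of all genes) and 1 rose (1.49%, against 12.2%), and the median was -0.24. Without PCA injury 1, 9 members fell (13.4%, against 7.87% of all genes) and 1 rose (1.49%, against 10.2%). Without PCA control 3, 11 fell (16.4%, against 7.71%) and 1 rose (1.49%, against 9.50%). Without the 3 arrays high in thyroid markers, Mrpl40, Mrps18c, Mrps23, Mrps28 and Mrps35 fell and Mrpl23 and Mrps26 rose. These 5 falls are 7.46% of the members, at the 7.62% of all genes that fell in that fit, and the 2 rises are 2.99%, against 8.67%.

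The order of the injured arrays followed the muscle fibre markers, whose mean was 11.87 on PCA injury 1, 12.21 on PCA injury 2 and 12.81 on PCA injury 3. With that mean as a covariate in the fit, 2 members fell (Mrpl1 and Mrps23) and 6 rose (Mrpl23, Mrpl43, Mrps2, Mrps7, Mrps17 and Mrps26), and the median turned from -0.16 to 0.07. These are 2.99% and 8.96% of the members, while 8.19% of all genes fell and 10.2% rose in that fit, so the 6 rises are near the share of all genes. Mrpl1 and Mrps23 were thus lower, and Mrps26 and Mrpl23 higher, with and without the covariate. With the mean of the squamous markers as covariate, no member was called. Over all genes 1.31% fell and 1.07% rose in that fit, against 12.5% and 13.3% without the covariate. The part of macrophage, cartilage, adipocyte and thyroid tissue in the members' differences was not tested with a covariate.

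**Figure D3:**
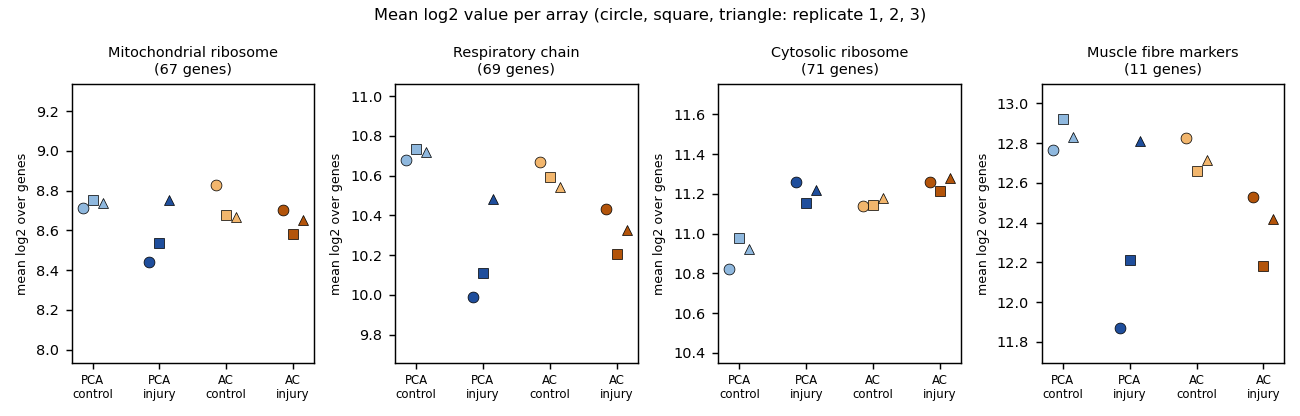
Mean log2 value on each array over the 67 mitochondrial ribosomal protein genes and over the lists set beside them, with the groups along the horizontal axis and circle, square and triangle for replicates 1, 2 and 3. The mean over the members is lower on PCA injury 1 and 2 (8.44 and 8.54) than in the PCA controls (8.72 to 8.75) and in that range on PCA injury 3 (8.75); the muscle fibre mean puts the 3 injured PCA arrays in the same order.

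In the AC, no member passed the threshold after injury in limma, where 1.91% of all genes were called, 0.761% lower and 1.15% higher. At an unadjusted p under 0.05 in limma, 6 of the 67 members were lower and none higher. Over all 14329 genes, 1280 were lower and 1624 higher at that cut-off. The share of members that was lower was thus near that of all genes. The median difference was -0.09 over the members and 0.02 over all genes, and 45 of 67 lay below 0 against 45.9% of all genes. The AC groups did not overlap in 14 members with injury lower (13.1% of all genes) and in 4 with injury higher (15.3% of all genes). The 3 widest negative differences were those of Mrpl47, Mrpl16 and Mrpl38.

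Mrpl47 read 8.82, 8.48 and 8.47 in the AC controls and 8.16, 7.85 and 8.24 after injury, with all injured arrays lower, and its difference was -0.51 ± 0.17 (adjusted p = 0.133). Mrpl16 went from 9.99, 9.80 and 9.81 to 9.55, 9.40 and 9.56, at -0.36 ± 0.13 (adjusted p = 0.139), again without overlap. Mrpl38, of the central protuberance, was at -0.32 ± 0.14 (adjusted p = 0.222), from 8.62, 8.32 and 8.28 to 8.27, 7.87 and 8.13. The lowest adjusted p belonged to Mrps35, at -0.29 ± 0.08 (adjusted p = 0.0901). The highest differences were 0.18 for Mrpl50, 0.18 for Mrpl23 and 0.16 for Mrps33, and none of these passed. Mrps33 was at 0.00 in the PCA, and Mrpl38 at -0.38 (adjusted p = 0.0633).

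The injury differences in the 2 muscles ran in the same order over the members, with a Pearson correlation of 0.66 and a Spearman correlation of 0.67 over 67 genes, which share arrays and are not independent replicates. Over all 14329 genes the Pearson correlation was 0.50. Both muscles were below 0 for 40 of the 67 members and above 0 for 13. Of the 17 genes that fell in the PCA, 16 were below 0 in the AC, and Mrpl50 was the exception.

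**Figure D4:**
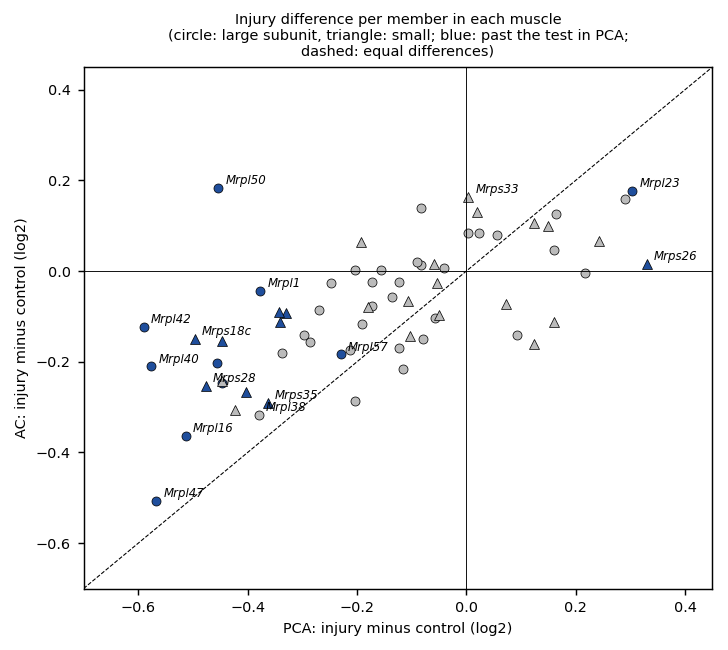
Each point is a member, with its fitted injury difference in the PCA on the horizontal axis and in the AC on the vertical axis (both log2). Circles are Mrpl and triangles Mrps genes, and blue marks those past the test in the PCA. Most blue points lie at the lower left and above the dashed line of equal differences; Mrpl50 lies apart at -0.45 in the PCA and 0.18 in the AC.

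Whether injury acted differently on the 2 muscles was tested by the difference of the injury effects. No member passed in limma, where 0.0279% of all genes were lower and 0.126% higher by this test. At an unadjusted p under 0.05, 6 of the 67 members were lower in the PCA relative to the AC and 2 higher. Over all 14329 genes, 1023 were lower and 1224 higher at that cut-off. The members' median was -0.08 and that of all genes -0.05, with 58.8% of all genes below 0. The widest difference was that of Mrpl50, at -0.64 ± 0.20 (adjusted p = 0.148). Its AC values, 7.36, 6.77 and 6.87 in the controls and 7.16, 7.13 and 7.26 after injury, overlapped, and AC control 1 stood above the other 2 controls. Mrpl42 followed at -0.47 ± 0.18 (adjusted p = 0.236) and Mrpl40 at -0.37. On the other side were Mrps26 at 0.31 ± 0.12 (adjusted p = 0.221), Mrps16 at 0.28 and Mrps21 at 0.27. The calls made in the PCA and the absence of calls in the AC therefore do not show that the muscles differed.

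Between the uninjured muscles 3 members differed. PCA controls against AC controls gave 2 members lower and 1 higher in the PCA with a median of 0.03, where 7.39% of all genes were lower and 3.24% higher. Of all genes, 41.8% were below 0. Mrps21, a small-subunit protein, read 10.92, 10.78 and 10.99 in the PCA and 11.32, 11.35 and 11.25 in the AC, without overlap, at -0.41 ± 0.09 (adjusted p = 0.0125). Mrps26 was lower in the PCA by -0.31 ± 0.08 (adjusted p = 0.0361). Mrps9 was higher there, at 0.29 ± 0.08 (adjusted p = 0.0447), with 7.63, 7.54 and 7.70 in the PCA against 7.46, 7.32 and 7.21 in the AC. Each of these calls was lost without the 3 arrays high in thyroid markers, where 4.38% of all genes were lower and 1.28% higher.

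Markers of other tissue also differed between the uninjured muscles. In the PCA controls all 8 squamous markers were lower (median -2.93), as were 11 of 13 cell cycle markers (median -1.13), 7 of 15 macrophage markers (median -0.77) and 8 of 10 neutrophil and red cell markers (median -1.60). Higher there were 9 of 12 adipocyte markers (median 0.91) and 8 of 11 cartilage markers (median 1.12), while the median of 11 muscle fibre markers was 0.09 and none was called, also at an unadjusted p under 0.05 in limma. With the squamous mean as covariate no member was called, and over all genes 0.00698% were lower and 0.00698% higher. The loss of the 3 calls in that fit was thus not particular to the members. The squamous mean ran from 7.61 to 10.57 in the PCA controls and from 11.67 to 12.17 in the AC controls, without overlap. The part of the other tissues in the 3 calls was not tested.

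Mrpl34 and Mrps16 were lower in the PCA controls at -0.37 (adjusted p = 0.0663) and -0.36 (adjusted p = 0.0748) without passing the test, and Mrpl50 and Mrps28 higher at 0.49 (adjusted p = 0.0514) and 0.39 (adjusted p = 0.122). The PCA controls enter both this comparison and the injury comparison in the PCA. Set side by side, Mrps26 was -0.31 between the controls and 0.33 after injury, Mrps9 0.29 and -0.34, and Mrps28 0.39 and -0.48.

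The other genes that mitochondrial translation needs were taken from lists. Counts for these and the lists that follow are given only for the fit on all 12 arrays without a covariate. In that fit 12.5% of all genes fell and 13.3% rose in the PCA. The alternative fits, in which the share of members that fell changed, are not given for these lists. Of 9 measured translation factors, 6 fell in the PCA and none rose, with a median of -0.37. They were Mtif2, the initiation factor that brings the first tRNA, at -0.64 ± 0.10 (adjusted p = 0.00111), Guf1, a back-translocation factor, at -0.48 ± 0.11 (adjusted p = 0.00937), Tufm, the elongation factor that delivers tRNA, at -0.39 ± 0.12 (adjusted p = 0.0325), and Mtfmt, Gfm1 and Taco1. Of 17 assembly factors 3 fell, among them Mtg1, a GTPase of large-subunit maturation, at -0.49 ± 0.08 (adjusted p = 0.00186), while Ddx28 was at 0.15 and did not pass. Of 11 tRNA synthetases 4 fell, with Aars2 at -0.46 ± 0.09 (adjusted p = 0.00360) the first of them. Of 5 mitochondrial ribosomal proteins that carry other names, Dap3 fell, at -0.23 ± 0.07 (adjusted p = 0.0356), and Ptcd3 was at 0.37 (adjusted p = 0.118). In the AC none of the genes in these 4 lists passed.

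Genes that maintain and read mitochondrial DNA and RNA gave 4 falls among 15, in Pnpt1 (-0.29), Lrpprc (-0.47), Ssbp1 (-0.38) and Tfb2m (-0.57), while the mitochondrial RNA polymerase Polrmt was at -0.16 (adjusted p = 0.125) and the DNA-packing factor Tfam at -0.25 (adjusted p = 0.131). Among 8 measured regulators of mitochondrial gene supply, the coactivators Ppargc1a and Ppargc1b fell, at -1.16 ± 0.20 (adjusted p = 0.00234) and -0.62 ± 0.13 (adjusted p = 0.00697), and Myc rose, at 0.43 ± 0.11 (adjusted p = 0.0129). Nrf1, the factor whose motif was searched above, was at 0.06, Gabpa at 0.12 and Yy1 at 0.03, and none of them passed.

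The products of the mitochondrial ribosome are joined to nuclear-encoded subunits of the respiratory chain and ATP synthase. Of 69 such nuclear genes 53 fell in the PCA and 2 rose, with a median of -0.56, and all 17 measured genes of the citric acid cycle fell, with a median of -0.73. Ndufs5, a complex I subunit, was at -0.78 ± 0.09 (adjusted p = 0.000317). On PCA injury 3, 47 of the 69 respiratory chain genes were below all 3 controls, against 27 of the 67 ribosomal members. The cytosolic ribosome went the other way: of 71 genes 48 rose and 1 fell, with a median of 0.31, and Rpl14 was at 0.55 ± 0.07 (adjusted p = 0.000446). Many cytosolic ribosomal genes have near-identical processed copies, and the 71 were covered by 258 probe sets, so the value of a single gene there is uncertain. In the AC, 1 respiratory chain gene fell (median -0.29) and no citric acid cycle or cytosolic ribosomal gene was called (medians -0.45 and 0.10). AC groups did not overlap, with injury lower, in 52 of 69 respiratory chain and all 17 citric acid cycle genes (13.1% of all genes). With injury higher this was so in 2 and 0 of them. Of the 71 cytosolic ribosomal genes it was so with injury higher in 37 (15.3% of all genes) and with injury lower in 0. The differences between these lists were not tested.

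**Figure D5:**
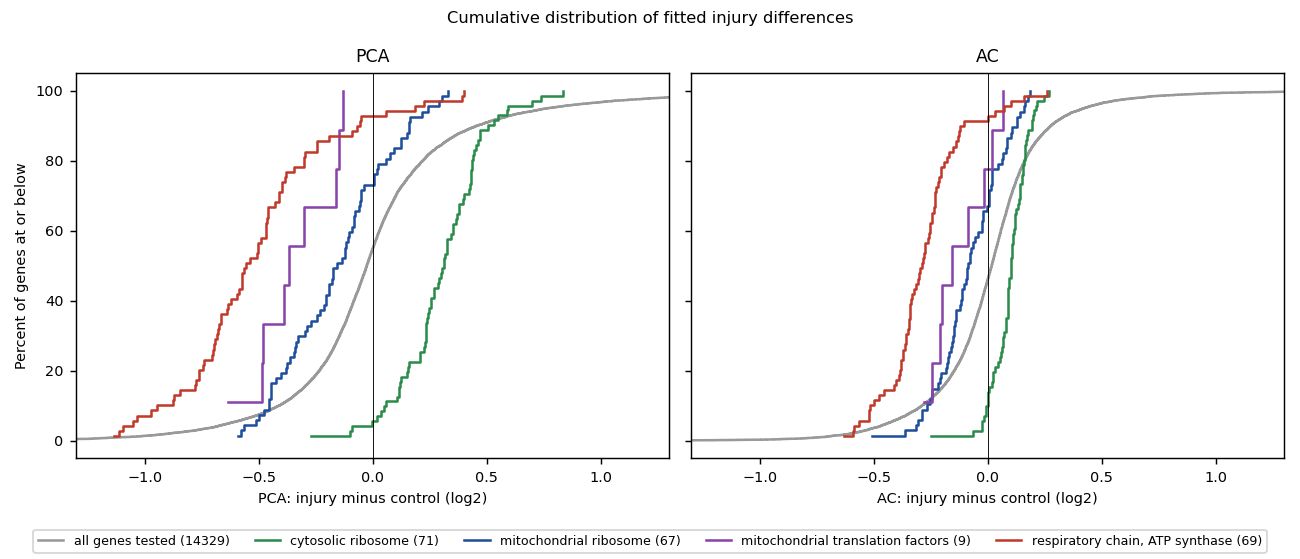
Cumulative share of genes, in percent, at or below each fitted injury difference (log2) in the PCA on the left and in the AC on the right, for all 14329 genes and 4 lists. In the PCA the 67 mitochondrial ribosomal genes (median -0.16) lie between all genes (-0.03) and the respiratory chain (-0.56), with the cytosolic ribosome on the far side (0.31).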

How the data were processed

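Total RNA from each muscle was labelled and hybridised to whole-transcript rat gene arrays, 3 per group, per the labels' protocols. The authors deposited 1 log2 value per probe set and array. Per the submitters' processing notes the tools were RMA and Partek, with no version or order, and the log base was taken from the range of the values, 2.57 to 14.04. Not given in the sources used here: background step, probe filter and genome build. Array medians lay between 7.11 and 7.17, so a difference is one against the rest of the array. Precision is limited by the number of arrays, which carry no read depth.

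Of 27342 probe sets, 15103 carried a single symbol, 317 several and 11922 none, and the last 2 kinds were left out. limma 3.58.1 in R 4.3.3 (lmFit, eBayes) was fitted with a mean per group, leaving 8 residual degrees of freedom, with two-sided tests and Benjamini-Hochberg adjustment at 0.05 over 14329 genes. The SE is that of limma's moderated test. The fit was checked on simulated data.

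Members, lists and alternatives were chosen with earlier results of these data known. Values on every PCA array are given for the 6 widest falls and 3 widest rises in the PCA, and AC values for some of them. Array values are also given for some of the 3 and 3 widest in the other comparisons, where they add to the text. The same holds for a few members named for their function. Other members with array values, such as Mrps23 and Mrps9, were picked after their values were seen. The list of tunnel-exit proteins was corrected after the fit, when Mrpl47 took the place of Mrpl19. Promoters are those of RefSeq, build GRCr8, and all 67 members matched it by gene ID. Alternatives covered normalisation, dim genes, probe sets, prior, array weights, covariates, a replicate block and leaving out arrays.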

Additional observations from a re-analysis of the deposited data

How the results depend on the processing

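The number of members called in the PCA, 19 in all, came to 10 with the 2 PCA groups fitted alone (13.4% of members and 6.94% of all genes lower). It was 7 without the 3 arrays high in thyroid markers (7.46% and 7.62% lower, so no larger a share than over all genes). With the squamous mean as covariate it was 0, where 1.31% of all genes were lower and 1.07% higher. With the muscle fibre mean as covariate it was 8 (2.99% and 8.19% lower, 8.96% and 10.2% higher), and the median became 0.0688. The fit without the thyroid-high arrays had fewer arrays in each PCA group. Leaving out single arrays gave 10 to 27 calls. The 10 were without PCA injury 1 (13.4% of members and 7.87% of all genes lower, 1.49% and 10.2% higher). The 27 were without PCA injury 3 (38.8% and 12.6% lower, 1.49% and 12.2% higher). In the AC, array weights gave 1 call (Mrps35, 1.49% of members and 2.16% of all genes lower), and leaving out single arrays gave none. The 3 calls between the uninjured muscles became 11 with array weights (5.97% of members and 10.5% of all genes lower, 10.4% and 7.82% higher). They became 10 with the muscle fibre mean (11.9% and 9.75% lower, 2.99% and 6.93% higher). With the squamous mean they became 0, where 0.00698% of all genes were lower and 0.00698% higher. Without the thyroid-high arrays they became 0 (4.38% of all genes lower, 1.28% higher), and without single arrays 1 to 6. The 6 came without PCA injury 3 (5.97% of members and 8% of all genes lower, 2.99% and 4.65% higher). No member called both in the fit on all 12 arrays and in an alternative had opposite signs in the 2 fits. This covers only calls that were kept. Of the 17 falls in the PCA, 2 were still called with the muscle fibre mean and 5 without the thyroid-high arrays. Normalising again, centring, the probe-set rule, the prior and the filter on dim genes gave 19 to 25 calls in the PCA. Over these fits 25.4% to 35.8% of the members and 12.5% to 19.7% of all genes were lower. Higher were 1.49% to 9.62% and 12.1% to 21.2%. The filter on dim genes kept 7170 genes and fewer members (30.8% and 19.7% lower, 9.62% and 21.2% higher). Control and injured arrays with the same replicate number had correlated deviations of -0.24, -0.38 and 0.08 in the PCA. In the AC the correlations were 0.15, 0.12 and 0.04. With 3 arrays a group, these values cannot tell whether the numbers pair the arrays. With a replicate block 18 members were called in the PCA, 16 of the 17 falls among them. In that fit 23.9% of the members and 10.8% of all genes were lower, and 2.99% and 11.8% higher. The cause of these changes was not tested. With 3 arrays a group, small differences may be missed.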

Other observations

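Mrpl46 and Mrps11 stand head to head on chromosome 1 of build GRCr8, with annotated starts 234 bases apart. In the injured PCA they were at -0.12 (adjusted p = 0.518) and -0.19 (adjusted p = 0.212) in limma, and in the injured AC at -0.22 and 0.06. Neither passed the test in either muscle.

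Mrpl45, a protein near the exit of the peptide tunnel, was at -0.08 in the PCA (adjusted p = 0.800 in limma).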
